A study of Mus musculus with 18 samples.

Results

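Txnip, 3 of its arrestin-domain relatives (Arrdc4, Arrdc3 and Arrdc2), the glucose-sensing transcription factors Mlxip (MondoA) and Mlxipl (ChREBP) with their shared partner Mlx, and the fuel-switch enzymes Pdk4 and Acacb were followed through the 6 groups of the study. These 9 of the 29112 genes in the deposited count table were taken by their symbols. The study measured mRNA in libraries labelled HL-1, a line grown from a mouse atrial tumour driven by the SV40 large T antigen, with 3 libraries per group. Untransfected cells had vehicle or high glucose. The other 4 groups were all in high glucose and were transfected, 2 of them with a miR-200a-3p reagent (inhibitor or mimic) and 2 with the matching negative control, and were collected 48 h later. Each mimic or inhibitor is a synthetic RNA that adds or blocks the activity of the microRNA. There was no transfected group without high glucose. The sources used here do not give the glucose concentrations, the length of exposure or whether untransfected cells met the transfection reagent. Nothing in the labels ties the 3 libraries of a group to separate cultures, so p-values measure only the spread between these libraries, which may be technical.

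MondoA and ChREBP are basic helix-loop-helix leucine zipper factors. When glucose phosphates build up they act in the nucleus as dimers with Mlx, on paired E-box-like motifs called carbohydrate response elements. Txnip and Arrdc4 are well known direct targets of MondoA, and Txnip protein binds thioredoxin and promotes removal of glucose transporters from the cell surface, a feedback brake on glucose uptake. Pdk4 inhibits pyruvate dehydrogenase and Acacb makes the malonyl-CoA that restrains fatty acid entry into mitochondria, so both sit at the choice between glucose and fat in heart muscle.

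Txnip was among the abundant transcripts of untransfected cells and lay at 21 to 42 reads per library in both transfected negative controls. Arrdc4 fell with it, while the sensor gene Mlxip rose in both. Pdk4 and Arrdc3 were much lower in the mimic control than in the inhibitor control. Between vehicle and high glucose, neither Txnip nor Arrdc4 passed the test, Arrdc3 rose and Mlxip fell slightly. The inhibitor left each tested gene short of the threshold. Under the mimic Arrdc3 was higher and Mlx lower past the threshold, each by less than 2-fold. Both fell short of it in at least 1 alternative processing, and the values of Mlx are uncertain because another gene overlaps it.

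The libraries held 33655916 to 37928790 reads each. Levels are given in CPM, reads scaled to library size by TMM, and a count of 0 would allow up to 3 reads or 0.0791 to 0.0891 CPM, counting error only. Mimic replicate 2 stood apart. Its summed level of 10 macrophage markers was 1240 CPM, and in the remaining 17 libraries it was 35.1 to 70.2 CPM. Of 12 cardiomyocyte markers 11 were listed, at a summed 34.1 to 89.3 CPM, with Tnnt2 (cardiac troponin T) at 16.3 to 71.4 CPM in the group means, and the atrial marker Nppa had 0 reads in the vehicle, inhibitor control, mimic control and mimic groups. Untransfected libraries had 10000 to 12000 CPM summed over 8 fibroblast markers, against 2320 to 2490 CPM for inhibitor and inhibitor control and 1070 to 1190 CPM for mimic and mimic control, with Lum at 0 reads in the transfected groups. The cell type is thus taken from the labels, and its defining atrial marker was absent or nearly so. In bulk libraries, fewer cells of a type and less RNA per cell cannot be told apart.

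The DNA motif of the glucose sensors is shown first because the sensors are known to act on Txnip through it. The box CACGNG was searched on both strands, in 300 bases of RefSeq sequence from 250 before to 50 after each start (build GRCm38.p6). CACGTG, the full E-box, was counted as well and is itself a case of CACGNG. A pair of boxes with 5 bases between them occurred in 27 of 32851 promoters (0.0822%), and Txnip was one of them. At least 1 box occurred in 27.5% of promoters and CACGTG in 7.15%. The Txnip pair and the CACGTG of Arrdc4 and Mlx are shown, as the genes the results turn on, with the boxes in capitals.
Txnip: actgtgCACGAGggctgCACGAGcctcca
Arrdc4: aaaggtcctgtgCACGTGcactatggtgtc
Mlx: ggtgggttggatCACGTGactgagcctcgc
The Txnip pair lay 85 to 69 bases before the start, on the + strand within chr3:96557707-96558006. The Arrdc4 site lay 193 to 188 bases before its start (- strand, within chr7:68749189-68749488), and the Mlx site 40 to 35 bases before its own (+ strand, within chr11:101087040-101087339). Txnip held 4 boxes in all, Arrdc2 held 1 and Acacb 2, and Mlxipl held 2 at 1 of its 2 starts, of which 1 was CACGTG. No match was found in the windows of Mlxip, Pdk4 or Arrdc3, which says only that these letters are not in those windows. A match is a description of sequence and not evidence of binding.

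The second sequence of interest is the microRNA itself, because its seed is the part that pairs with target transcripts. The RefSeq mature sequence is shown with bases 2 to 8, the seed, in capitals, followed by the seed matches found in the annotated 3′ UTRs of the 9 genes (GENCODE M39, GRCm39), with the 7 matching bases in capitals.
miR-200a-3p: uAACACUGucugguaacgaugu
Txnip site 1: ttgaactcCAGTGTTtcagagac
Txnip site 2: tttaaagtCAGTGTTcctttttt
Txnip site 3: ttcctgtcCAGTGTTgggagaaa
Pdk4 site: aacattttCAGTGTTtccccgcc
The 3 Txnip matches lay in its last exon (exon 8 of 8, + strand) at chr3:96467906-96467912, chr3:96468310-96468316 and chr3:96468908-96468914, in a 3′ UTR of 1356 nt. The Pdk4 match lay in its last exon (exon 11 of 11, - strand) at chr6:5485048-5485054, in a 3′ UTR of 2352 nt. The other 7 genes held none. Of 17328 canonical 3′ UTRs, 25.2% held at least 1 match and 2.16% at least 3. Among the 2340 within 20% of the length of that of Txnip, 0.513% held at least 3. The values of Txnip and Pdk4 under the mimic and the inhibitor are given with those comparisons.

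The glucose sensors are described first. Mlxip, the gene of MondoA (ENSMUSG00000038342.16, chromosome 5, 123532794 to 123595995, + strand, GRCm39), had 709, 665 and 689 reads in the 3 vehicle libraries and 577, 562 and 592 in high glucose. It had 816, 762 and 701 reads in the inhibitor control, 759, 723 and 753 with the inhibitor, 1030, 927 and 941 in the mimic control and 930, 886 and 931 with the mimic. High glucose held the lowest libraries, and the mimic and its control the highest. Scaled levels were 18.8 ± 1.11 CPM in vehicle, 16.2 ± 0.176 CPM in high glucose, 21.5 ± 1.36 CPM in the inhibitor control and 29.4 ± 0.28 CPM in the mimic control (SD, n = 3 each). Against high glucose, Mlxip rose by 0.41 ± 0.0592 in the inhibitor control (log2 fold change ± SE, edgeR adjusted p = 2.75e-06) and by 0.86 ± 0.0587 in the mimic control (adjusted p = 3.15e-11). Neither control overlapped high glucose in CPM. An antisense gene model that overlaps exons of Mlxip had at most 1 read in any library.

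Mlx, the gene of the obligate partner (ENSMUSG00000017801.16, chromosome 11, 100978080 to 100983043, + strand), had 1280, 1239 and 1221 reads in vehicle, 1220, 1136 and 1127 in high glucose and 1026, 1025 and 1026 in the inhibitor control. It had 1143, 1216 and 1062 reads with the inhibitor, 2006, 1688 and 1926 in the mimic control and 1729, 1760 and 1681 with the mimic. The mimic pair was the highest and did not overlap any other group. Mlx rose by 0.80 ± 0.053 in the mimic control against high glucose (adjusted p = 1.74e-11), from 32.7 ± 2.06 to 57 ± 3 CPM. In the inhibitor control, at 29.1 ± 0.487 CPM, the difference was -0.17 ± 0.0541 (adjusted p = 0.00854). That smaller call ended with upper quartile scaling, over a range of 0.0014 to 0.135. Exons of Mlx overlap 1109 bases of Psmc3ip, a protein-coding gene on the other strand. Untransfected libraries had 416 to 532 reads of Psmc3ip, those of the inhibitor and its control 633 to 812, and those of the mimic and its control 1636 to 1945. The strand setting of the counting is not known, so reads of both genes cannot be told apart there and the values of Mlx are uncertain.

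Mlxipl, the gene of ChREBP, which dominates this role in liver and fat (ENSMUSG00000005373.14, chromosome 5, 135118744 to 135168615, + strand), was close to absent. It had 5, 3 and 7 reads in vehicle, 4, 4 and 1 in high glucose, 4, 1 and 5 in the inhibitor control, 4, 4 and 1 with the inhibitor, 6, 4 and 2 in the mimic control and 3, 10 and 6 with the mimic. All groups overlapped. The gene did not pass the filter on low counts (at least 10 reads in about as many libraries as a group holds). With no filter its adjusted p was 0.635 to 1 over the comparisons. Per length, MondoA was the more abundant of the 2 sensor transcripts, at 2.28 FPKM (fragments scaled to transcript length and library size, by the authors) in vehicle against 0.0233 FPKM for Mlxipl.

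Txnip, the thioredoxin-interacting protein gene (ENSMUSG00000038393.15, chromosome 3, 96465267 to 96469201, + strand), had 14873, 14345 and 13252 reads in vehicle and 14330, 14609 and 15617 in high glucose. It had 39, 42 and 21 reads in the inhibitor control, 23, 38 and 28 with the inhibitor, 22, 24 and 31 in the mimic control and 19, 71 and 21 with the mimic. Every one of the 12 transfected libraries thus held 71 reads or fewer, and the 71 came from mimic replicate 2, the library rich in macrophage markers. Between untransfected and transfected libraries the ranges lay far apart. In CPM, Txnip was at 386 ± 16.8 in vehicle, 417 ± 9.2 in high glucose, 0.961 ± 0.309 in the inhibitor control and 0.785 ± 0.164 in the mimic control (SD, n = 3 each).

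Against high glucose, Txnip fell 431-fold in the inhibitor control (log2 fold change -8.75 ± 0.193, adjusted p = 9.3e-19) and 531-fold in the mimic control (-9.05 ± 0.2, adjusted p = 4.76e-19). Both comparisons use the same high glucose libraries. In the inhibitor control this was the lowest fold change of all 15074 genes tested. In the mimic control it had rank 5 from the lowest. The 2 negative controls differed by 0.30 ± 0.392 (adjusted p = 0.501, 95% interval -0.52 to 1.12). The interval covers more than a 2-fold difference between them, so equal levels were not shown. The overlapping antisense Gm15441, with 928 shared exonic bases, had 0 to 10 reads in any library. In untransfected libraries Txnip ranked 361 of 28907 genes by FPKM in vehicle and 338 in high glucose, above 98.8% of genes.

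Arrdc4, the other established MondoA target and an arrestin-domain adaptor (ENSMUSG00000042659.16, chromosome 7, 68386742 to 68398999, - strand), had 306, 316 and 306 reads in vehicle and 288, 266 and 236 in high glucose. It had 14, 4 and 15 reads in the inhibitor control, 16, 11 and 20 with the inhibitor, 11, 16 and 10 in the mimic control and 28, 46 and 11 with the mimic. No transfected library reached the lowest untransfected one, and the highest transfected library was again mimic replicate 2. Levels were 8.45 ± 0.191 CPM in vehicle, 7.42 ± 0.923 CPM in high glucose, 0.313 ± 0.175 CPM in the inhibitor control and 0.378 ± 0.113 CPM in the mimic control. Against high glucose Arrdc4 fell 23.5-fold in the inhibitor control (log2 fold change -4.55 ± 0.347, adjusted p = 2.19e-10) and 19.5-fold in the mimic control (-4.29 ± 0.341, adjusted p = 3.62e-10). Ordered from the lowest fold change, it had rank 38 in the former and rank 305 in the latter. The controls differed by -0.27 ± 0.481 (inhibitor control against mimic control, adjusted p = 0.634).

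**Figure D1:**
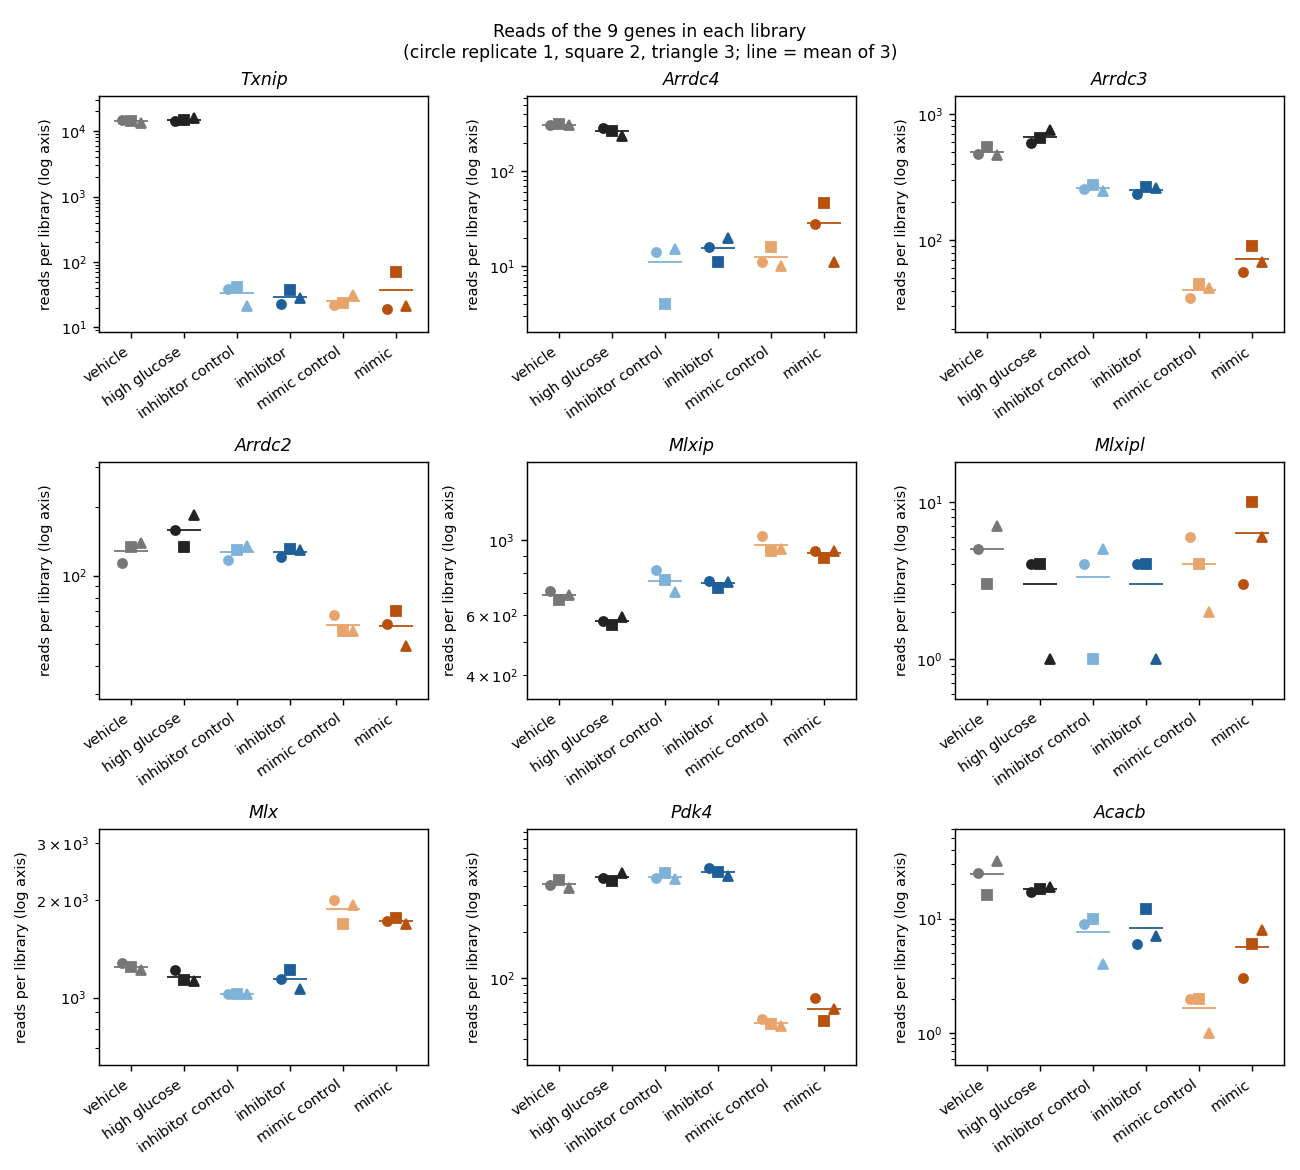
Reads of the 9 genes in each library, on log axes, by group; circles, squares and triangles are replicates 1, 2 and 3 and the line is the mean of 3. Txnip lies at 13252 to 15617 reads in the 6 untransfected libraries and at 19 to 71 in the 12 transfected ones, while Mlxip stays between 562 and 1030.

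Arrdc3, an arrestin-domain protein that acts in receptor trafficking and fat cell energy use (ENSMUSG00000074794.11, chromosome 13, 81031409 to 81044161, + strand), separated the 2 transfected pairs. It had 485, 549 and 478 reads in vehicle, 590, 649 and 753 in high glucose, 255, 274 and 245 in the inhibitor control and 233, 265 and 259 with the inhibitor. In the mimic control it had 35, 45 and 42 reads and with the mimic 56, 91 and 68. The untransfected groups were highest, the inhibitor pair intermediate and the mimic pair lowest, with no overlap between these levels. Against high glucose Arrdc3 fell 2.55-fold in the inhibitor control (log2 fold change -1.35 ± 0.112, adjusted p = 8.62e-10) and 15-fold in the mimic control (-3.91 ± 0.141, adjusted p = 8.66e-16). The inhibitor control was 5.89-fold higher than the mimic control (log2 fold change 2.56 ± 0.147, adjusted p = 4.63e-12).

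Arrdc2, a less studied arrestin relative (ENSMUSG00000002910.12, chromosome 8, 71287770 to 71292364, - strand), was low in the mimic pair. It had 113, 134 and 139 reads in vehicle, 158, 134 and 185 in high glucose, 117, 130 and 135 in the inhibitor control, 121, 131 and 129 with the inhibitor, 67, 57 and 57 in the mimic control and 61, 70 and 49 with the mimic. The inhibitor pair and the untransfected groups overlapped, and the mimic pair lay below all of them. Against high glucose Arrdc2 fell 2.43-fold in the mimic control (log2 fold change -1.28 ± 0.141, adjusted p = 5.47e-08). The inhibitor control was called lower with a log2 fold change of only -0.30 ± 0.132 (adjusted p = 0.0421), and this call ended in 8 of 16 alternatives. It ended without high glucose replicate 3 (adjusted p = 0.185), without inhibitor control replicate 1 (0.14) and with upper quartile scaling (0.123). The full range was 0.0131 to 0.185. The inhibitor control was 1.97-fold above the mimic control (log2 fold change 0.98 ± 0.142, adjusted p = 3.55e-06).

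Pdk4, pyruvate dehydrogenase kinase 4 (ENSMUSG00000019577.7, chromosome 6, 5483097 to 5496339, - strand), had 406, 438 and 389 reads in vehicle, 449, 428 and 480 in high glucose, 447, 481 and 445 in the inhibitor control and 522, 488 and 464 with the inhibitor. In the mimic control it had 54, 50 and 49 reads and with the mimic 74, 53 and 63. The drop thus set apart the mimic pair, whose 6 libraries all lay below the other 12. Pdk4 was at 12.7 ± 0.312 CPM in high glucose, 13 ± 0.469 CPM in the inhibitor control and 1.55 ± 0.0375 CPM in the mimic control. It fell 8.17-fold in the mimic control against high glucose (log2 fold change -3.03 ± 0.0902, adjusted p = 4.28e-17). In the inhibitor control the difference was 0.03 ± 0.0711 (adjusted p = 0.699), with a 95% interval of -0.118 to 0.18 that leaves out the drop seen in the mimic control. The inhibitor control was 8.34-fold above the mimic control (log2 fold change 3.06 ± 0.0902, adjusted p = 3.49e-16).

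Acacb, acetyl-CoA carboxylase 2 (ENSMUSG00000042010.17, chromosome 5, 114284307 to 114388822, + strand), was scarce in every group. It had 25, 16 and 32 reads in vehicle, 17, 18 and 19 in high glucose, 9, 10 and 4 in the inhibitor control, 6, 12 and 7 with the inhibitor, 2, 2 and 1 in the mimic control and 3, 6 and 8 with the mimic. It passed the filter through the untransfected groups, where it was high, and so had to differ somewhere. Its comparisons with those groups are therefore given as a description, and it is left out of the counts below. Its log2 fold changes against high glucose were -1.21 ± 0.375 in the inhibitor control and -3.23 ± 0.499 in the mimic control. The mimic control libraries lay below the 3 reads that a count of 0 would allow, so the size of that change rests on few reads.

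These calls are read against the background of all genes. In the mimic control 78.9% of all genes tested were called against high glucose (39% higher, 39.9% lower), and of the 7 genes tested besides Acacb all were called, Mlxip and Mlx higher and the other 5 lower. In the inhibitor control 79.5% of all genes were called (40.1% higher, 39.3% lower), and 6 of these 7 genes were, 1 higher and 5 lower. A call alone says little at such a background. By size, Txnip and Arrdc4 lay far below the median log2 fold change of all genes, which was 0.0141 in the mimic control and 0.0352 in the inhibitor control. A total of 1513 genes fell at least 4-fold in the former and 839 in the latter. Between the 2 controls 74.2% of all genes were called (38.5% higher, 35.7% lower in the inhibitor control) and 5 of these 7 genes, with Arrdc3, Arrdc2 and Pdk4 higher and Mlxip and Mlx lower in the inhibitor control. Upper quartile scaling moved the median of all genes by 0.105 in this last comparison and turned no direction here. The labels set the negative controls apart from high glucose cells by transfection and by the negative control reagent, which cannot be told apart. Whether time in culture or in glucose differed too is not given. The summed levels of fibroblast markers given above were also lower in both controls, and their part in these results was not tested.

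**Figure D2:**
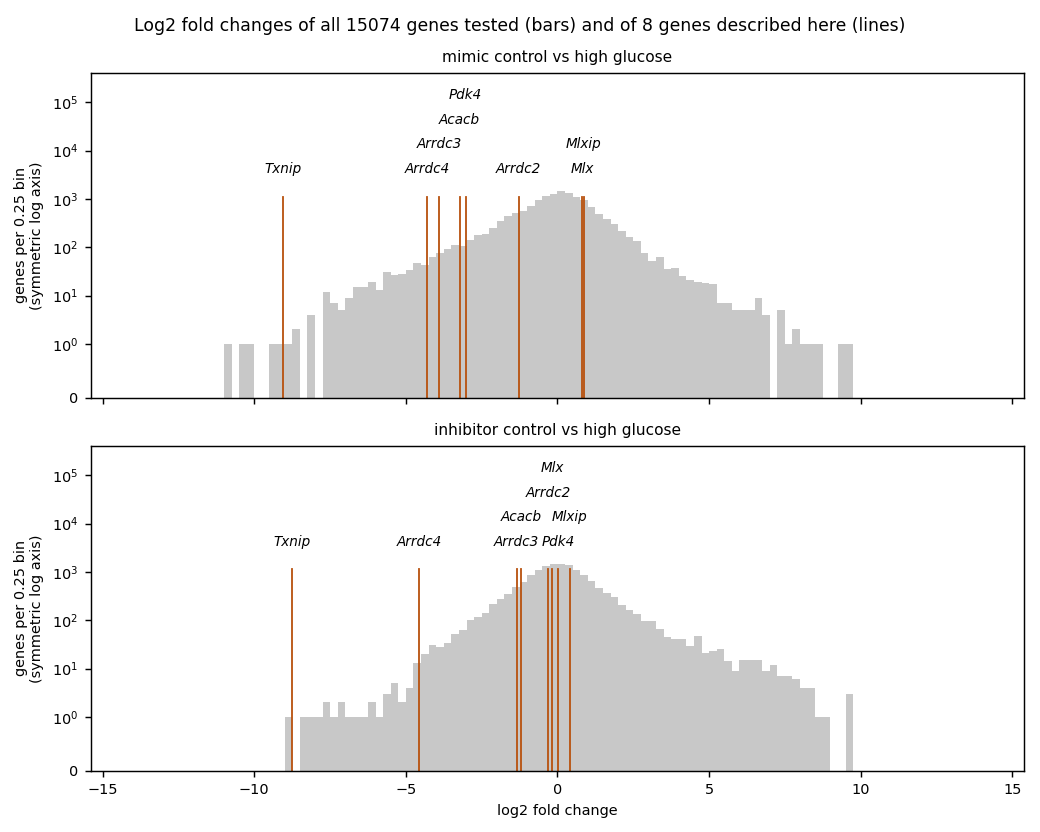
Log2 fold changes of all 15074 genes tested (grey bars, in bins of 0.25, symmetric log axis) in the mimic control and the inhibitor control against high glucose, with lines at 8 of the described genes. Txnip stands at -9.05 and -8.75, near or at the low end, while Mlxip lies above 0 in both.

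The order of the 9 genes by length-scaled level changed between groups. In vehicle the order was Txnip (125 FPKM), Mlx (17.2 FPKM), Pdk4 (3.23 FPKM), Mlxip (2.28 FPKM), Arrdc3 (2.22 FPKM), Arrdc4 (2.11 FPKM) and Arrdc2 (1.1 FPKM), then Acacb (0.07 FPKM) and Mlxipl (0.0233 FPKM). The libraries of Mlxip and Arrdc3 overlapped, as did those of Arrdc3 and Arrdc4, so these neighbours do not differ beyond their spread. In high glucose Txnip (134 FPKM), Mlx (16.4 FPKM) and Pdk4 (3.64 FPKM) led again and Arrdc3 (2.99 FPKM) stood above Mlxip (1.96 FPKM) and Arrdc4 (1.84 FPKM), of which the latter pair overlapped. In the inhibitor control Mlx led at 14.3 FPKM, ahead of Pdk4 (3.63 FPKM), Mlxip (2.54 FPKM), Arrdc3 (1.15 FPKM), Arrdc2 (1.1 FPKM) and Txnip (0.303 FPKM). In the mimic control Mlx (25.5 FPKM) and Mlxip (3.16 FPKM) led, with Arrdc2 (0.51 FPKM), Pdk4 (0.397 FPKM), Txnip (0.223 FPKM) and Arrdc3 (0.177 FPKM) behind. Arrdc3 and Arrdc2 overlapped in the inhibitor control, and Txnip and Arrdc3 in the mimic control. With the inhibitor and the mimic, Txnip was at 0.257 and 0.327 FPKM. In both negative controls Txnip thus stood below Mlx, Mlxip, Pdk4 and Arrdc2.

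The comparison of high glucose with vehicle addresses what glucose changed in untransfected cells. Of the 7 genes 1 rose and 1 fell, in a background of 24.2% of all genes called (12% higher, 12.2% lower). Arrdc3 rose by 0.44 ± 0.107 (adjusted p = 0.00495), from 13.7 ± 0.642 to 18.6 ± 1.82 CPM (SD, n = 3 each), and the 3 high glucose libraries lay above the 3 vehicle libraries. Mlxip, at 18.8 ± 1.11 CPM in vehicle and 16.2 ± 0.176 CPM in high glucose, changed by -0.21 ± 0.0595 (adjusted p = 0.0124), and its groups did not overlap. Fitting only these 6 libraries ended the call (adjusted p = 0.0572), as did the fits without vehicle replicate 1 (0.0581) or without vehicle replicate 3 (0.0599), and its range was 0.00436 to 0.0599.

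Txnip differed by 0.11 ± 0.113 between high glucose and vehicle (adjusted p = 0.539), with a 95% interval of -0.127 to 0.348. Its high glucose libraries were at 407, 422 and 423 CPM and its vehicle libraries at 406, 378 and 375 CPM, so the groups did not overlap, but the difference was small. Arrdc4 differed by -0.19 ± 0.247 (adjusted p = 0.645), Mlx by -0.06 ± 0.0536 (0.462) and Acacb by -0.40 ± 0.319 (0.414). Arrdc2 differed by 0.34 ± 0.132 (0.0667) and Pdk4 by 0.18 ± 0.0715 (0.076). Both passed the threshold with limma on log2(FPKM + 1) (0.0415 each), and Arrdc2 did so without vehicle replicate 3 (0.0473) or high glucose replicate 2 (0.0355). Mimic replicate 2 enters only through the shared spread, and leaving it out, an alternative chosen after seeing the data, brought both past it as well (0.0288 and 0.0484).

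**Figure D3:**
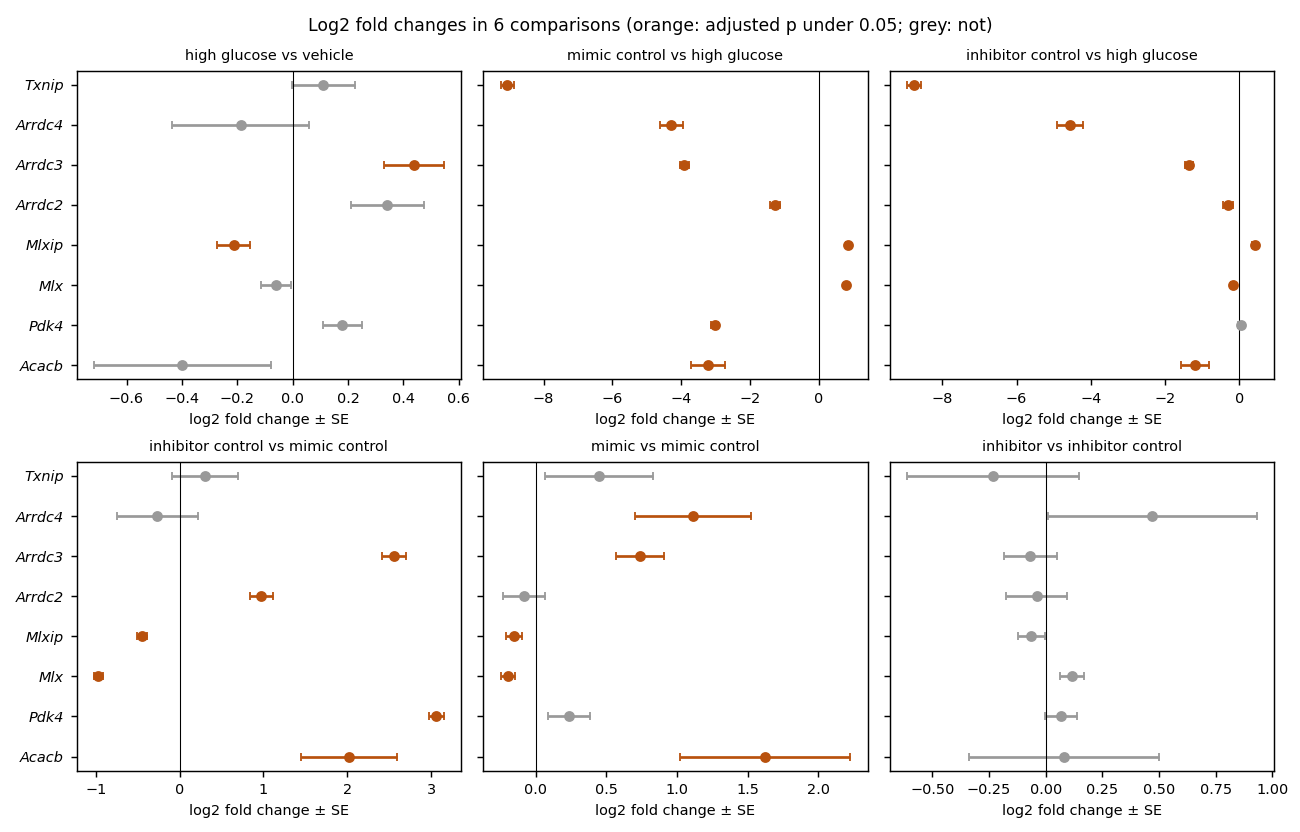
Log2 fold changes with their SE for 8 genes in 6 comparisons, orange where the adjusted p was under 0.05 and grey where not. The panel of high glucose against vehicle holds values between -0.40 and 0.44, while Txnip stands at -9.05 and -8.75 in the panels of a negative control against high glucose.

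The mimic was compared with its control to ask what miR-200a-3p did to these genes in high glucose. Of the 7 genes 2 rose and 2 fell, in a background of 33.7% of all genes called (15.8% higher, 18% lower). Of the called genes 46.7% were higher, against 38.9% with DESeq2 and 55.1% with upper quartile scaling. When log2 FPKM was tested with limma at pseudocounts of 1 and 0.1, 61.3% and 63.5% were. The arrestin relative Arrdc3 rose by 0.74 ± 0.17 (adjusted p = 0.00275), from 1.01, 1.43 and 1.3 CPM to 1.6, 2.65 and 1.97 CPM, with no overlap. Without mimic replicate 2 its rise was 0.51 ± 0.186 (adjusted p = 0.0425), and limma on log2(FPKM + 1) ended the call (0.0555). Mlx changed by -0.20 ± 0.052 (adjusted p = 0.00707), from 57.7, 53.7 and 59.5 CPM to 49.3, 51.3 and 48.6 CPM, again with no overlap. Without mimic replicate 2 it differed by -0.23 (adjusted p = 0.00689), and both limma fits on FPKM ended the call (adjusted p = 0.0679 and 0.0684). The reads Mlx may share with Psmc3ip apply here too.

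The other calls under the mimic, that of Acacb included, ended in many alternatives. Arrdc4 was called higher by 1.11 ± 0.41 (adjusted p = 0.0423), but its libraries overlapped, at 0.798, 1.34 and 0.318 CPM with the mimic and 0.316, 0.509 and 0.309 CPM in the control. Without mimic replicate 2 it was 0.56 ± 0.407 (adjusted p = 0.339), and the call ended in 8 of 15 alternatives. Mlxip was called lower, with a log2 fold change of -0.15 ± 0.0571 (adjusted p = 0.0441), at 26.5, 25.8 and 26.9 CPM against 29.6, 29.5 and 29.1 CPM with no overlap, and this ended in 9 of 15 alternatives (adjusted p up to 0.32, and 0.107 without mimic replicate 2). Acacb was called higher by 1.62 ± 0.604 (adjusted p = 0.0445) on 3, 6 and 8 reads against 2, 2 and 1, and this ended in 9 of 12 alternatives (0.13 without mimic replicate 2). Without that library 26.2% of all genes were called, and 2 of the 7 genes, namely Arrdc3 and Mlx.

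Txnip and Pdk4, the genes with seed matches shown above, were not called under the mimic. Txnip differed by 0.45 ± 0.385 (adjusted p = 0.403) with replicate 2, at 0.542, 2.07 and 0.607 CPM against 0.633, 0.763 and 0.958 CPM. Without replicate 2 its difference had the other sign, -0.45 ± 0.285 (adjusted p = 0.267), so 1 library set its direction. Pdk4 differed by 0.23 ± 0.149 (adjusted p = 0.243), at 2.11, 1.55 and 1.82 CPM against 1.55, 1.59 and 1.51 CPM. It passed the threshold, as higher, in 1 of 15 alternatives, limma on log2(FPKM + 0.1) (adjusted p = 0.0314). The 95% interval for Txnip was -0.356 to 1.25 with all 3 mimic libraries, in a pair whose libraries held 19 to 71 reads of it each, so neither an effect nor its absence was shown.

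**Figure D4:**
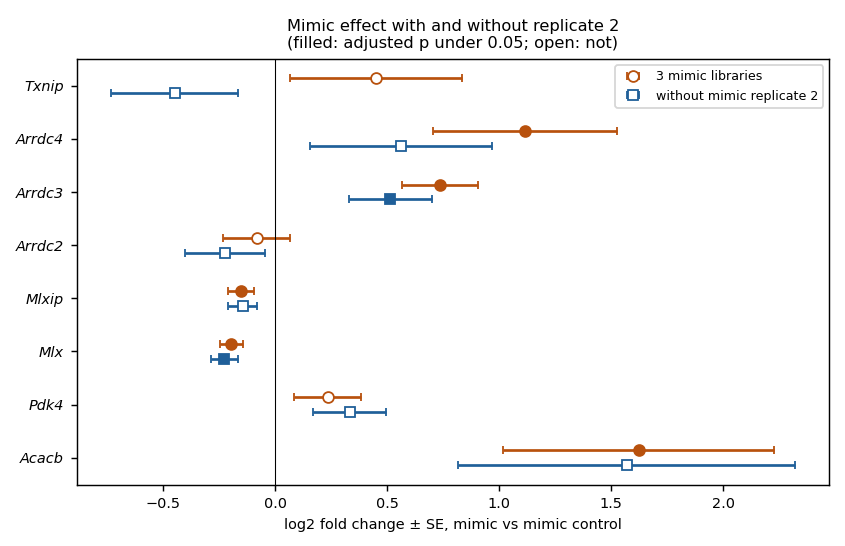
Log2 fold change of the mimic against its control with its SE for 8 genes, with all 3 mimic libraries (circles) and without replicate 2 (squares), filled where the adjusted p was under 0.05. Txnip moves from 0.45 to -0.45 and Arrdc4 from 1.11 to 0.56, while Arrdc3 and Mlx keep their direction and stay called.

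The inhibitor was compared with its control to ask what blocking miR-200a-3p changed. In this comparison 0% of all genes were called by edgeR, with 447 at an unadjusted p under 0.05, and DESeq2 called 0 genes as well. None of the 8 tested genes was called, and each adjusted p was 1. Txnip differed by -0.23 ± 0.379, with a 95% interval of -1.03 to 0.56, at 0.634, 1.02 and 0.802 CPM against 1.1, 1.18 and 0.607 CPM. Arrdc4 differed by 0.47 ± 0.461, Arrdc3 by -0.07 ± 0.117, Arrdc2 by -0.04 ± 0.134 and Mlxip by -0.06 ± 0.0583. Pdk4 differed by 0.07 ± 0.0708 and Acacb by 0.08 ± 0.42. Mlx was the one whose libraries did not overlap, at 31.5, 32.6 and 30.4 CPM against 28.9, 28.8 and 29.6 CPM, and differed by 0.11 ± 0.0541 (unadjusted p = 0.0477).

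Whether the 2 reagents, each against its own control, had different effects was tested as an interaction (mimic effect minus inhibitor effect), in which 13.2% of all genes were called (4.63% higher, 8.59% lower) and 2 of the 7 genes. Of all called genes 35% were on the higher side, against 47.2% when libraries were scaled by upper quartile and 27.7% by DESeq2 size factors. Testing log2 FPKM in limma gave 49.5% at a pseudocount of 1 and 53.1% at 0.1. Arrdc3 differed between the reagents by 0.81 ± 0.206 (adjusted p = 0.0152) and Mlx by -0.31 ± 0.075 (adjusted p = 0.011). The Arrdc3 call ended without mimic replicate 2 (adjusted p = 0.073), without mimic control replicate 1 (0.0625) and with limma on log2 FPKM at a pseudocount of 1 (0.152), over a range of 0.000519 to 0.152. Txnip differed by 0.68 ± 0.541 (adjusted p = 0.43) and Acacb by 1.54 ± 0.739 (0.175).

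Genes of neighbouring pathways were read from lists, each gene with its log2 fold change, in the order mimic control, inhibitor control where 2 values are given. Of 17 tested glucose-responsive targets of MondoA and ChREBP, 5 were higher and 10 lower in the mimic control against high glucose, with a median of -0.39. In the inhibitor control 7 were higher and 8 lower, with a median of 0.09. All-gene backgrounds were 39% higher and 39.9% lower in the former and 40.1% and 39.3% in the latter, and members of the list moved in both directions. The triokinase Tkfc of fructose use fell in both (-2.33 and -1.62), as did the fructokinase Khk (-1.95 and -1.89) and the fatty acid desaturase Scd1 (-1.96 and -0.51). The hormone gene Fgf21 had 6 to 12 reads in a vehicle library and at most 4 in a high glucose library. It had 18 to 22 in the mimic control and 35 to 53 in the inhibitor control. Fgf21 passed the filter through the transfected groups, where it was high, so its calls as higher in both controls are a description only. The counts of higher genes above include it. Hexokinase 2 (Hk2), the first enzyme of glucose use, rose in both (2.24 and 1.44). Between vehicle and high glucose 4 of the 17 rose and 3 fell, with a median of -0.09. The background there was 24.2% of all genes called (12% higher, 12.2% lower). Elovl6 (0.52) and Me1 (0.36), which serve fatty acid synthesis, rose, while the transcription factor Klf10 fell (-0.75).

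The lists that follow have the same backgrounds, 78.9% of all genes called in the mimic control and 79.5% in the inhibitor control. The other arrestins were lower in both, 3 of 3, with the beta-arrestin Arrb1 at -2.88 and -1.63. Among 9 MYC, MAX and MXD network genes, a network of dimers that Mlx joins, 4 rose and 3 fell in the mimic control and 4 rose and 4 fell in the inhibitor control. Myc rose in both (2.49 and 1.84) and the MYC antagonist Mxd4 fell in both (-3.97 and -1.88). Of 11 thioredoxin system genes 5 rose and 4 fell, and 4 rose and 6 fell. Of 8 genes of the glucose entry and phosphorylation list 2 rose and 5 fell, and 2 rose and 3 fell, with the transporter Slc2a1 higher by 1.06 and 1.30. Of 10 FOXO factors and targets 2 rose and 8 fell in each, with medians of -1.37 and -1.08, led by the cyclin Ccng2 (-2.96) in the mimic control and the sestrin Sesn3 (-2.14) in the inhibitor control. These medians lie against all-gene medians of 0.0141 and 0.0352.

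**Figure D5:**
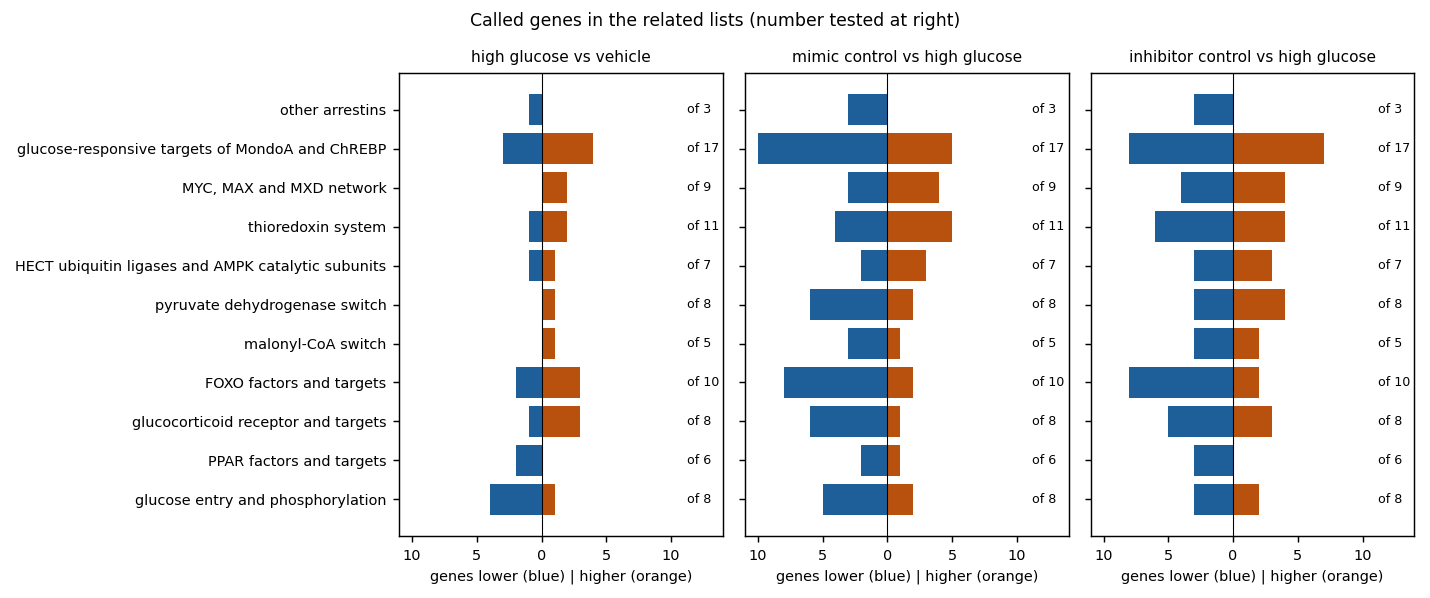
Genes of 11 lists called higher (orange) or lower (blue) in high glucose against vehicle and in each negative control against high glucose, with the number tested at the right of each bar. The FOXO list holds 8 lower and 2 higher in both controls, while the MondoA and ChREBP list is split 5 to 10 and 7 to 8.

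Genes with the profile most like that of Txnip were named by the correlation of log2 CPM over the 18 libraries among 10044 candidates, as a description. The libraries fall into an untransfected and a transfected cluster, so any gene with that split scores high. The chemokine Ccl2 led (r = 0.9975), followed by the RNase gene Zc3h12a (0.9964), the matrix protease Mmp14 (0.9962), the receptor Notch1 (0.9959) and the interleukin receptor Il4ra (0.9955). Ccl2 was at 42.64 CPM in high glucose, 1.24 CPM in the inhibitor control and 1.12 CPM in the mimic control. Among the described genes Arrdc4 had the highest likeness to Txnip (0.955), followed by Acacb (0.818), Arrdc3 (0.763), Arrdc2 (0.578) and Pdk4 (0.457). Arrdc4 ranked only 882 among the candidates, so many genes outside this set were more like Txnip. Mlx (-0.35) and Mlxip (-0.765) ran the other way.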

How the data were processed

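Per the labels' protocols, mRNA libraries from a stranded kit were read as 150 nt pairs. Reads with more than 2 N bases and reads under 16 nt were dropped, with trimming by FASTX-Toolkit 0.0.13. HISAT2 mapped them to GRCm39 and allowed 4 mismatches. The authors deposited counts of uniquely mapped reads per gene and FPKM values, and the submitters' processing notes also name DESeq2, with no role. The sources used here do not give the counting program, annotation release or strand setting.

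The count tests used edgeR 4.0.16 (R 4.3.3): a quasi-likelihood F test, filterByExpr with a minimum count of 10 and a minimum total of 15, TMM scaling, and all 6 groups in 1 fit with 12 residual degrees of freedom. P-values were adjusted by Benjamini-Hochberg over 15074 genes, and "called" means an adjusted p under 0.05. Mean levels carry the SD of 3 libraries. Alternatives were DESeq2 1.42.0, limma 3.58.1 on log2(FPKM + 1) and log2(FPKM + 0.1), other scalings and filters, a replicate block, the compared groups alone, and leaving out each library. The fitting code was tested on simulated data. Between replicates, chi-square per degree of freedom was 4.37 to 26.1, above counting noise, so no libraries were merged, which does not show that they are separate cultures.

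The 9 genes and the related lists were chosen with earlier results of these data known. All 9 are named. From each list, names come from the 4 called genes with the largest change, or the 2 with the smallest p. The 5 genes most like Txnip have the highest correlation with it among tested genes with at least 5 CPM in some group. Promoters and the mature microRNA come from RefSeq (GRCm38.p6), and 3′ UTR sites from GENCODE M39 on GRCm39.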

Additional observations from a re-analysis of the deposited data

Results flagged for a closer look

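The interaction test in edgeR, with each reagent set against its own negative control, called 2 of the 7 genes tested besides Acacb and 13.2% of all genes. The inhibitor against its control called 0% of all genes, so no effect of the inhibitor by itself was shown. For Arrdc3 the difference (mimic effect minus inhibitor effect) was 0.81 ± 0.206 (log2 scale, adjusted p = 0.0152), and 3 of 3 mimic libraries lay above every mimic control library. This call ended without mimic replicate 2 (adjusted p = 0.073), without mimic control replicate 1 (0.0625) and when log2(FPKM + 1) was tested in limma (0.152). Over all alternatives it ran from 0.000519 to 0.152. For Mlx it was -0.31 ± 0.075 (adjusted p = 0.011), with 3 of 3 mimic libraries below and 3 of 3 inhibitor libraries above their controls. Reads that Mlx may share with Psmc3ip leave its values uncertain here as well.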

How the results depend on the processing

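Of the fold changes of the 8 tested genes, Acacb included here and in the counts below, under alternatives, 846 kept their direction and side of the threshold, 47 fell short of it, 7 passed it and 14 changed sign, and of the counts of calls 210 stayed within 1.5 times and 22 did not. The drops of Txnip, Arrdc4, Arrdc3 and Pdk4 in the mimic control against high glucose held in every alternative run, as did those of Txnip, Arrdc4 and Arrdc3 in the inhibitor control. The cause of the changes below was not tested.

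Between high glucose and vehicle, 2 of these genes were called, against 1 with the compared groups only, 4 with limma on log2(FPKM + 1), 1 to 3 when a library of the pair was left out (1 without vehicle replicate 1), and 4 without mimic replicate 2, an alternative chosen after seeing the data. Under the mimic 5 were called, against 3 without a filter, 3 with the compared groups only, 0 with limma on log2(FPKM + 1), 2 on log2(FPKM + 0.1) and 2 to 4 with a library left out (2 without mimic replicate 2, mimic control replicate 1 or mimic control replicate 3). Under the inhibitor 0 genes of all were called, against 26 without a filter and 1 with the compared groups only. In the interaction 2 of these genes were called, against 1 with limma on log2(FPKM + 1) and 1 to 2 with a library left out (1 without mimic replicate 2 or mimic control replicate 1). Of all genes 1993 were called in it, and 1244 to 2207 with a library left out (1304 and 1244 without inhibitor control replicates 2 and 3, 1286 without mimic control replicate 1).

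Signs changed only for log2 fold changes short of the threshold. With a library left out, Txnip ran from -0.45 to 0.76 and Arrdc2 from -0.225 to 0.0297 under the mimic, Arrdc2 from -0.105 to 0.0188 and Acacb from -0.246 to 0.306 under the inhibitor, and Pdk4 from -0.00417 to 0.048 in the inhibitor control against high glucose. Arrdc4 ran from -0.586 to 0.123 between the controls, and in the interaction Txnip ran from -0.217 to 0.993 and Arrdc2 from -0.184 to 0.0712. With limma on FPKM at pseudocounts of 1 and 0.1, Pdk4 was -0.00207 and -0.00256 in the inhibitor control, and Arrdc2 0.0127 and 0.0104 in the interaction.

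Replicate numbers are not stated to pair the libraries. Same-numbered deviations correlated at -0.174 to 0.103, which cannot settle pairing with 3 libraries per group. With the replicate block, 3 of these genes were called under the mimic, without Arrdc4 (adjusted p = 0.0563) and Acacb (0.0636), and no other call of these genes changed. Each library correlated best with its own number in the inhibitor control against high glucose (3 of 3, r = 0.0479 to 0.103). The other comparisons had 0 to 2 of 3, and high glucose against vehicle had only negative same-numbered values (-0.174 to -0.0638). The 3 of 3 therefore does not show pairing. Depth limits Mlxipl, Acacb and the transfected libraries of Txnip and Arrdc4, which rest on 1 to 71 reads.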

Other observations

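The remaining lists held genes that move fuel use. Values are log2 fold changes, in the order mimic control, then inhibitor control, each against the same high glucose libraries. Of 8 genes of the pyruvate dehydrogenase switch besides Pdk4, 2 rose and 6 fell in the mimic control and 4 rose and 3 fell in the inhibitor control. The kinase gene Pdk2 fell in both (-3.07 and -2.73), and Pdk1 fell in the former (-1.11) and rose in the latter (0.78). Of 5 genes of the malonyl-CoA switch 1 rose and 3 fell, and 2 rose and 3 fell, with the carnitine palmitoyltransferase Cpt1a at -2.06 and -1.14. The counts of higher genes in this list include Cpt1b. It had 2 reads in each high glucose library, 8 to 19 in the mimic control and 51 to 59 in the inhibitor control. Cpt1b passed the filter through the transfected groups, where it was high, so its rise is a description only. Of 7 HECT ubiquitin ligases and AMPK catalytic subunits 3 rose and 2 fell, and 3 rose and 3 fell. Nedd4 was at -0.93 and -0.62 and Wwp1 at 0.76 and 1.47. Of 8 genes of the glucocorticoid receptor list 1 rose and 6 fell, and 3 rose and 5 fell, with the clock gene Per1 at -1.20 and -2.13. Of 6 genes of the PPAR list 1 rose and 2 fell, and 0 rose and 3 fell, with the lipase inhibitor Angptl4 at -2.05 and -2.27. Calls covered 78.9% and 79.5% of all genes in these comparisons.

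Under the mimic, 1 of 17 targets of MondoA and ChREBP rose and 5 fell, in a background of 33.7% of genes called (15.8% higher, 18% lower). Without mimic replicate 2 the counts were 1 and 7, where 26.2% of all genes were called. The fatty acid synthase gene Fasn fell (-0.58), as did Hk2 (-0.30). Of 8 genes of glucose entry and phosphorylation 1 rose and 5 fell. The gene that rose, hexokinase 3 (Hk3), had 397 reads in mimic replicate 2 against 12 and 11 in replicates 1 and 3, and without replicate 2 its difference was 0.37 (adjusted p = 0.556), with 0 rising and 5 falling. Of 8 genes of the pyruvate dehydrogenase switch besides Pdk4, 3 rose and 1 fell, with Pdk1 higher by 0.69. Of 11 thioredoxin system genes 3 rose and 3 fell, with Srxn1, which repairs oxidised peroxiredoxins, higher by 0.54. Without mimic replicate 2 the counts were 2 and 0 in the former list and 3 and 2 in the latter. The 2 that fell there were Txn2 (-0.29) and Txnrd2 (-0.40).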
